A study of Mus musculus with 16 samples.

Results

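The 9 genes that dendritic cells raise as they mature, Cd83, Ccr7, Fscn1, Cd80, Cd86, Cd40, Il12b, Ccl22 and Ccrl2, were read out of the 22298 genes counted in each of 16 abdominal tumors. The genes were taken by name, matched to their Ensembl identifiers through GENCODE M21, and all 9 were found in every tumor's count table. The tumors grew in 6-week-old, sex-matched, wild-type 615-line mice, an inbred strain in which the mouse forestomach carcinoma line MFC can be grafted. Each was injected intraperitoneally with 500000 MFC cells. The vehicle group (8 tumors) was given PBS, and the IL-33 treatment group (8 tumors) was given IL-33 at 20 μg/kg every 2 days, both into the peritoneal cavity. The methods give 4 to 5 mice per group for this model and, for sequencing, 8 tumor samples per group. Neither they nor the labels say which mouse each tumor came from. The p-values thus measure the spread between these tumors, and some tumors may share a mouse.

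Dendritic cells take up antigen in tissue and, on sensing inflammation or dying cells, switch to a mature state in which uptake stops and presentation to T cells starts. CD83 is the surface marker by which mature cells are commonly recognised, and it stabilises MHC class II and CD86 on the surface. Mature cells gain the receptor CCR7, which leads them to lymph nodes, the actin-bundling protein fascin, the costimulatory molecules CD80, CD86 and CD40, and secreted products such as the p40 subunit of IL-12 and the chemokine CCL22. Several of these genes are also used by activated macrophages and B cells, and Fscn1 is widely used by carcinoma and stromal cells, so a level in a whole tumor cannot be assigned to 1 cell type.

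A vehicle tumor had 14139268 to 24290794 counts in all, an IL-33 tumor 16569613 to 24288893. Levels are given as CPM, a gene's counts scaled to a total of 1000000 counts in its tumor. IL-33 replicate 7 stood apart: the summed level of 7 ovary genes was 1676 CPM there, where no other tumor exceeded 7.97 CPM, and 8 uterus and oviduct genes summed to 1692 CPM against at most 27.3 CPM. Adipose, fibroblast and lymph node stroma marker sums, at 2271, 14253 and 398 CPM against at most 243, 6799 and 200 CPM, were also highest in that tumor. Values without it are given where they change a call, turn a direction or move a value. All 13 genes of a dendritic cell lineage list (Flt3, Zbtb46, Itgax, Xcr1, Clec9a and others) had enough counts to be tested, and their summed level lay between 58.4 and 261 CPM. Of 8 epithelial marker genes, which the carcinoma graft should carry, Krt8 and Krt19 had means of 543 and 184 CPM in vehicle tumors, whereas the means of Epcam, Cdh1, Krt18, Krt7, Cldn3 and Cldn4 lay between 0.0556 and 1.74 CPM.

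Promoter sequence was held in the RefSeq table (GRCm38.p6) for 5 of the 9 genes, Fscn1, Cd80, Il12b, Ccl22 and Ccrl2. The 250 bases before the start are shown for Il12b and Ccrl2, whose levels moved with those of Cd83 between tumors, and for Cd80, whose level did not. Both strands were searched for GGGNNTTNC (a kappa-B type motif), TGANTCA (AP-1), GAGGAA (ETS family, including PU.1) and GAAANNGAA (interferon response), and matches are in capitals.
Il12b, chr11:44399813-44400062, plus strand: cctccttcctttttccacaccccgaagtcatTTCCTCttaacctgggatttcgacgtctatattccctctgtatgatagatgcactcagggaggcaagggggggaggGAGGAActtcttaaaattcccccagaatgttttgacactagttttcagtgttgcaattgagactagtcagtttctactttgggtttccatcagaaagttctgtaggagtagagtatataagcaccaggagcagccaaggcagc
Ccrl2, first of 3 listed starts, chr9:111057519-111057768, minus strand: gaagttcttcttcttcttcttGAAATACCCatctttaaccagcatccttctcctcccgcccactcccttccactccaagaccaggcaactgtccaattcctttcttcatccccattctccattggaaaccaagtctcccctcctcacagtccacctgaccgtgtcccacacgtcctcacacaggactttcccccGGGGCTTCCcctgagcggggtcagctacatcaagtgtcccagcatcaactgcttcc
Cd80, chr16:38458683-38458932, plus strand: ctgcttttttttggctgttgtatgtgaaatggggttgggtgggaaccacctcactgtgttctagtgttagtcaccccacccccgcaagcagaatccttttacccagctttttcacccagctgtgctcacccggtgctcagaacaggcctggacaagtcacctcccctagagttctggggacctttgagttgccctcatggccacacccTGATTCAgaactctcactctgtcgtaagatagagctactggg
The Il12b window held 2 GAGGAA matches, a motif found in 23.4% of the 32536 promoter windows of this length. The window of the first Ccrl2 start held 2 GGGNNTTNC matches, found in 12.9% of windows. The Cd80 window held 1 TGANTCA match, found in 6.73% of windows. GAAANNGAA, found in 7.15% of windows, was in none of the 7 windows of these genes, and the windows of Fscn1, Ccl22 and the other 2 starts of Ccrl2 held no match to any of the 4 motifs. These are matches of letters, not sites shown to be bound.

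The first question was whether the 9 genes differed between IL-33 and vehicle tumors. Cd83 and Ccrl2 were higher in IL-33 tumors, by 2.52 and 1.97 times in their means, with groups that overlapped, and no gene was lower. The other 7 genes did not pass the test. In edgeR's quasi-likelihood test at an unadjusted p under 0.05, 2 of the 9 were higher, against 9.99% of the 16817 genes tested, and 0 of the 9 were lower, against 1.17%. After Benjamini-Hochberg adjustment over all genes none of the 9 passed, nor did any other gene (0% of those tested; the smallest adjusted p was 0.418), and DESeq2 and limma voom also gave 0 genes.

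Cd83 (ENSMUSG00000015396; GRCm38 chromosome 13, 43784775 to 43803132, plus strand) had 0.707 CPM in the lowest vehicle tumor, a median of 1.54 CPM and 11.1 CPM in the highest. In IL-33 tumors the lowest was 1.73 CPM, the median 7.37 CPM and the highest 20 CPM. The groups overlapped: 3 IL-33 tumors (replicates 4, 7 and 8) lay above every vehicle tumor, while vehicle replicates 2 and 7, at 8.71 and 11.1 CPM, both lay above 4 of the IL-33 tumors. Vehicle replicate 7 also lay above IL-33 replicate 3, at 9.73 CPM. The mean was 3.61 ± 3.96 CPM in the vehicle group and 9.09 ± 6.66 CPM in the IL-33 group (SD, n = 8 each), a ratio of 2.52, with 6 of 8 IL-33 tumors above the vehicle mean. The log2 fold change was 1.24 (SE 0.57, edgeR p = 0.0445, adjusted p = 0.430), and the exact two-sided permutation p on log2(CPM + 0.5) was 0.0378. With that highest tumor, IL-33 replicate 7, left out, the log2 fold change was 1.05 (edgeR p = 0.0843) and the exact permutation p was 0.0712, so Cd83 no longer passed.

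Ccrl2 (ENSMUSG00000043953; chromosome 9, 111054486 to 111057519, minus strand) encodes a chemerin-binding receptor that presents its ligand to other cells rather than signalling itself. Its lowest, median and highest levels were 1.40, 2.00 and 4.69 CPM in the vehicle group and 2.04, 5.12 and 8.59 CPM in the IL-33 group. Replicates 3, 4, 7 and 8 of the IL-33 group exceeded every vehicle tumor, and the remaining 4 lay within the vehicle range. The means were 2.58 ± 1.29 and 5.10 ± 2.54 CPM (SD, n = 8 each). The log2 fold change was 0.88 (SE 0.34, edgeR p = 0.0204, adjusted p = 0.418, exact permutation p = 0.0267). Without IL-33 replicate 7 it was 0.82 (edgeR p = 0.0259, adjusted p = 0.964, exact permutation p = 0.0499), and Ccrl2 was then the only 1 of the 9 that passed, against 1.83% of the genes tested in 15 tumors.

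Migration and cytoskeleton genes came next. Ccr7 (ENSMUSG00000037944; chromosome 11, 99144196 to 99155077, minus strand), the lymph node homing receptor, ran from 0.282 to 4.69 CPM with a median of 0.401 CPM in vehicle tumors, and from 0.636 to 6.01 CPM with a median of 2.21 CPM in IL-33 tumors. Vehicle replicates 2 and 7 were as high as the upper IL-33 tumors, and IL-33 replicates 1, 2 and 6 lay below 1 CPM together with 6 of the vehicle tumors. The log2 fold change of 0.97 (SE 0.68) did not pass (edgeR p = 0.172, exact permutation p = 0.0853). Fscn1 (ENSMUSG00000029581; chromosome 5, 142960343 to 142973185, plus strand), which encodes fascin, was the most even of the genes, at 180 to 249 CPM in vehicle tumors and 186 to 230 CPM in IL-33 tumors. Its log2 fold change was -0.15 (SE 0.10, edgeR p = 0.178, exact permutation p = 0.504).

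Among the costimulatory genes none passed. Cd80 (ENSMUSG00000075122; chromosome 16, 38455561 to 38496335, plus strand) and Cd86 (ENSMUSG00000022901; chromosome 16, 36603869 to 36666081, minus strand) encode the 2 ligands of CD28 and CTLA-4. Cd80 lay between 31.1 and 53.6 CPM in vehicle tumors and between 30.8 and 53.5 CPM in 7 IL-33 tumors, but at 6.55 CPM in IL-33 replicate 7. Its log2 fold change was -0.12 (SE 0.30, edgeR p = 0.694, exact permutation p = 0.770) and turned to 0.05 (SE 0.15, edgeR p = 0.741) without that tumor. That same tumor had the highest Cd83 of all 16.

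Cd86 ran from 2.76 to 14.1 CPM (median 5.33) in vehicle tumors and from 1.84 to 16.6 CPM (median 7.21) in IL-33 tumors. Cd40 (ENSMUSG00000017652; chromosome 2, 165055627 to 165072948, plus strand), the receptor through which helper T cells license dendritic cells, ran from 1.88 to 18.1 CPM (median 2.83) and from 0.595 to 20.4 CPM (median 4.10). In both genes IL-33 replicate 6 was the lowest and IL-33 replicate 3 the highest of the 16 tumors, and vehicle replicate 7 was the highest vehicle tumor, so the spread within a group was far wider than the difference between groups. The log2 fold changes were 0.25 (SE 0.38, edgeR p = 0.524, exact permutation p = 0.577) for Cd86 and 0.32 (SE 0.63, edgeR p = 0.610, exact permutation p = 0.685) for Cd40.

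The secreted products were the scarcest. Il12b (ENSMUSG00000004296; chromosome 11, 44400063 to 44414033, plus strand), which encodes the subunit shared by IL-12 and IL-23, had 32 counts in the vehicle group and 90 in the IL-33 group. It had no count in 4 vehicle and 2 IL-33 tumors, where 0 counts allow a level of up to 0.148 to 0.212 CPM (3 counts; counting error only), and reached 1.31 CPM in vehicle replicate 7 and 1.69 CPM in IL-33 replicate 8. Ccl22 (ENSMUSG00000031779; chromosome 8, 94745590 to 94751699, plus strand), a chemokine that draws CCR4-bearing T cells, had 83 and 107 counts and was highest, at 3.14 CPM, in vehicle replicate 7. Only a few tumors in each group carried most of the counts of either gene. The log2 fold changes were 1.23 (SE 1.21, edgeR p = 0.323, exact permutation p = 0.252) for Il12b and 0.25 (SE 0.99, edgeR p = 0.805, exact permutation p = 0.690) for Ccl22.

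**Figure D1:**
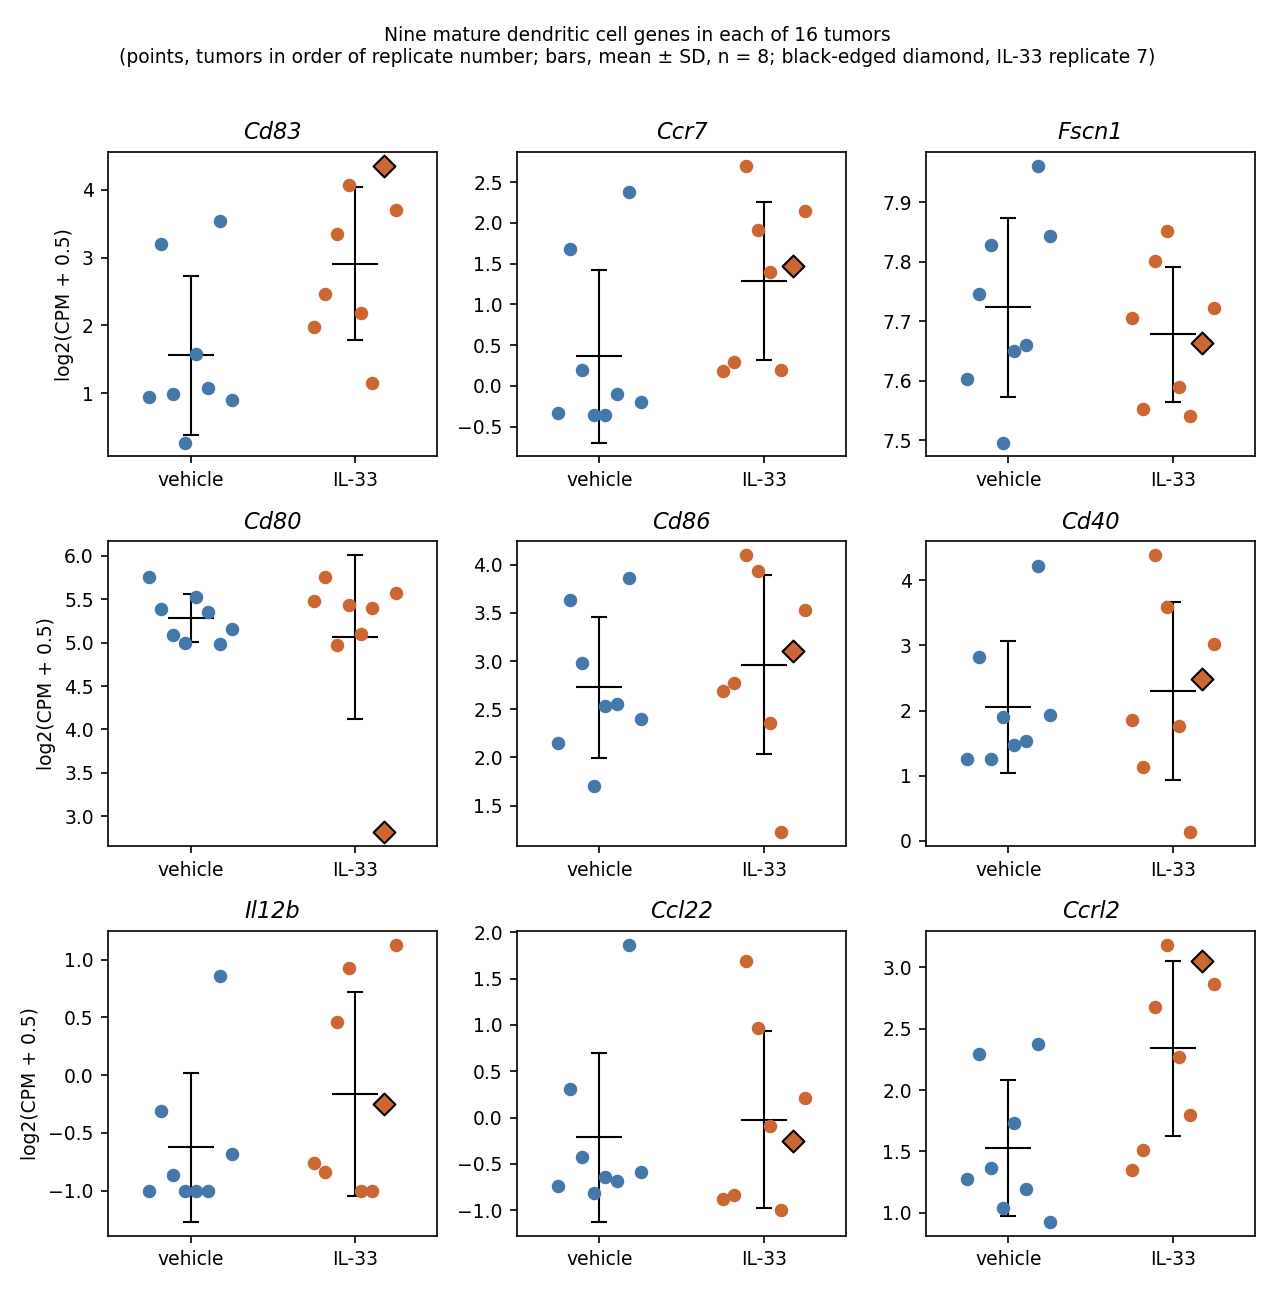
Level of each gene, log2(CPM + 0.5) on the vertical axis, in the 8 vehicle (blue) and 8 IL-33 (orange) tumors, with the mean ± SD as bars and IL-33 replicate 7 as a black-edged diamond. Vehicle replicates 2 and 7 rise above the other vehicle tumors in most panels, and IL-33 replicate 7 is the highest tumor for Cd83 and the lowest, at 6.55 CPM, for Cd80.

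Without IL-33 replicate 7 the log2 fold change was 1.03 for Ccr7, -0.10 for Fscn1, 0.30 for Cd86, 0.41 for Cd40, 1.35 for Il12b and 0.38 for Ccl22, and none of these 6 passed. Without vehicle replicate 7, 4 of the 9 genes were higher in IL-33 tumors, against 10.1% of the genes tested: Cd83, Ccr7, Il12b and Ccrl2. The log2 fold change was then 1.70 for Ccr7 and 2.81 for Il12b. Leaving out 1 tumor at a time, Ccrl2 passed in 16 of 16 fits and Cd83 in 6 of 16. The Cd83 call was lost without vehicle replicate 1, 3, 4, 5, 6 or 8 or IL-33 replicate 3, 4, 7 or 8, and its log2 fold change lay between 1.05 and 1.73 over the 16 fits.

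**Figure D2:**
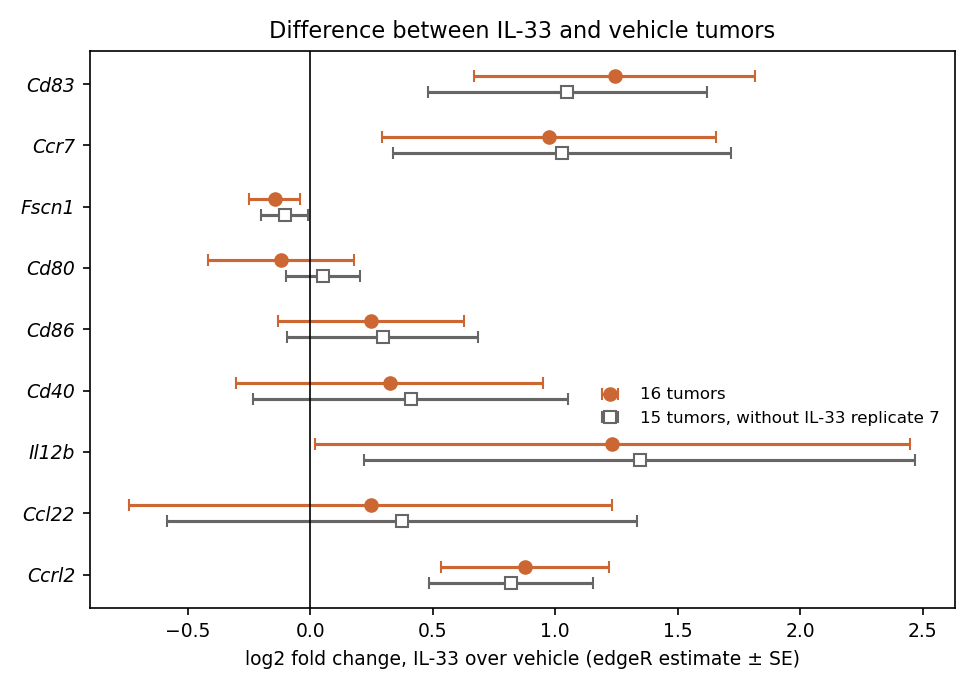
Log2 fold change of each gene, IL-33 over vehicle, with its standard error (edgeR), from all 16 tumors (filled circles) and from 15 tumors without IL-33 replicate 7 (open squares). Ccrl2 keeps 0.82 of its 0.88 without that tumor, whereas Cd80 moves from -0.12 to 0.05.

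Compared per kilobase of exon, so that genes can be set beside each other, the mean level over the 16 tumors was 69.2 CPM per kb for Fscn1 and 10.3 for Cd80. The other 7 genes were far lower, at 2.47 for Cd83, 2.13 for Cd86, 1.70 for Cd40, 1.48 for Ccrl2, 0.926 for Ccr7, 0.281 for Ccl22 and 0.199 for Il12b. Neighbours from Cd83 to Ccr7, and Ccl22 and Il12b, lay within each other's SD in both groups. The 2 most abundant genes were also the 2 that did not pass the test of r with Cd83 over the 16 tumors, described next.

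The second question was whether each gene followed Cd83 from tumor to tumor. The same tumors were high in most of the genes. The 6 tumors highest in Cd83 (vehicle replicates 2 and 7 and IL-33 replicates 3, 4, 7 and 8) were also the 6 highest in Ccr7, Cd86, Cd40, Il12b and Ccrl2, and 5 of the 6 were among the 6 highest in Ccl22. Of the same 6 tumors, 4 were among the 6 highest in Fscn1 and 2 in Cd80. Vehicle replicates 4 and 6 and IL-33 replicate 6 were among the 6 highest for none of the 9 genes.

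Over the 16 tumors, Pearson r of log2(CPM + 0.5) with Cd83 was positive at an unadjusted permutation p under 0.05 for 6 of the other 8 genes, against 28.3% of all genes tested. The same held for 5 of 5 leukocyte, 9 of 9 B cell, 8 of 8 T cell and 8 of 10 macrophage marker genes. Of NK cell and neutrophil markers 4 of 7 and 1 of 7 did, so following Cd83 was not particular to the 9 genes. Ccrl2 had r = 0.93 (Spearman rho 0.94, permutation p = 1e-05, the smallest that 100000 permutations can give), a value exceeded by 0.0535% of the genes tested. Ccr7 had r = 0.87 (rho 0.84, permutation p = 3e-05), Cd86 r = 0.80 (rho 0.78, permutation p = 0.00023) and Il12b r = 0.80 (rho 0.76, permutation p = 0.00015). Cd40 and Ccl22 followed less closely, at r = 0.72 (rho 0.59, permutation p = 0.00149) and r = 0.69 (rho 0.63, permutation p = 0.00197). After adjustment over all genes tested, the p of these 6 genes lay between 0.000945 and 0.0207.

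Fscn1 and Cd80 did not pass over the 16 tumors. Fscn1 had r = 0.44 (rho 0.39, permutation p = 0.0894), and its sign depended on the scaling, since r was -0.38 (permutation p = 0.149) on TMM-scaled CPM. Cd80 had r = -0.38 (rho -0.12, permutation p = 0.124), a value set by IL-33 replicate 7, without which r was 0.05. On TMM-scaled CPM of the 16 tumors, r of Cd80 was -0.48 (permutation p = 0.0165), so this call depended on the scaling. The signs of the other 6 genes were the same on TMM-scaled CPM.

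**Figure D3:**
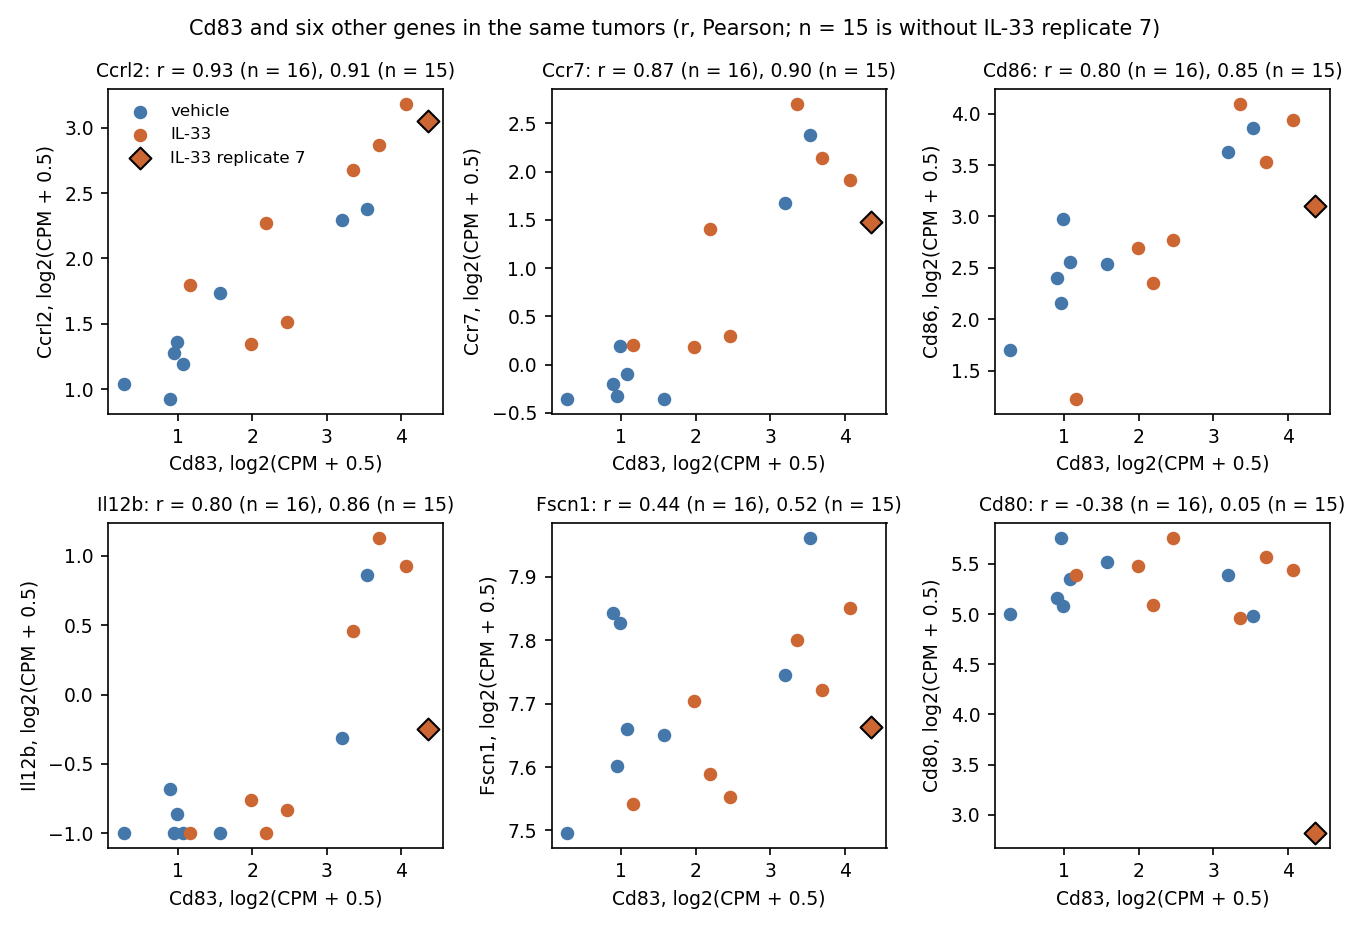
Each panel plots 1 gene against Cd83 in the same 16 tumors, both as log2(CPM + 0.5), with vehicle tumors in blue, IL-33 tumors in orange and IL-33 replicate 7 as a diamond. Ccrl2 and Ccr7 climb with Cd83 (r = 0.93 and r = 0.87), and Cd80 stays near one level except in IL-33 replicate 7.

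In the 15 tumors left when IL-33 replicate 7 is dropped, the same 6 genes followed Cd83, with r from 0.77 (Cd40) to 0.91 (Ccrl2), and Fscn1 reached r = 0.52 (permutation p = 0.0476, adjusted p = 0.171). That made 7 of 8 genes, against 24% of all genes tested. Leaving out the 2 tumors farthest from the median of Cd83 (IL-33 replicates 4 and 7) gave r from 0.74 to 0.91 for the 6 genes, 0.45 for Fscn1 and 0.00 for Cd80. Centred on the group means, the 6 genes had r from 0.75 to 0.90, and Fscn1 had r = 0.64 (permutation p = 0.00817), so whether Fscn1 passed depended on the setting.

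Within the 8 vehicle tumors, r of the 6 genes lay between 0.84 (Cd40, exact permutation p = 0.0217) and 0.96 (Ccrl2, exact permutation p = 0.00134). Within the 8 IL-33 tumors it lay between 0.62 (Ccl22, exact permutation p = 0.105) and 0.86 (Ccrl2, exact permutation p = 0.0112), and for Ccl22 it was 0.79 (exact permutation p = 0.0365) in the 7 without replicate 7. These are 16 relations with unadjusted p. The genes thus varied together in both groups, and no test of a difference between the groups was made.

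The relation was also computed within narrower ranges of Cd83, where a lower r and fewer calls can follow from the narrower range and the smaller number of tumors alone. The widest gap in Cd83, chosen after its values were seen, lay between 5.01 and 8.71 CPM. Within the 10 tumors below it, 2 of the 8 genes had a positive r at an unadjusted p under 0.05, against 4.56% of all genes tested: Ccr7 (r = 0.64, permutation p = 0.0379) and Ccrl2 (r = 0.63, permutation p = 0.0483). Within the 6 tumors above it, Ccrl2 alone did (r = 0.85, exact permutation p = 0.0389), or 1 of 8 against 13.3% of all genes. There Ccr7 had r = -0.52 and Cd86 r = -0.56, and neither passed.

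Among themselves, Cd83 and the 6 genes that followed it formed 21 pairs with r from 0.66 to 0.93 and a median of 0.83 (0.85 without IL-33 replicate 7). The closest pair was Cd40 and Ccl22, at 0.93. The 15 pairs that included Fscn1 or Cd80 had a median r of -0.07. Fscn1 had a positive r with Cd83 and each of the 6 genes, from 0.33 (Ccrl2) to 0.72 (Ccl22) and 0.75 (Cd86). Cd80 had a negative r with each of the other 8 genes. Without IL-33 replicate 7 its r with Cd83 turned to 0.05 and the rest stayed negative. All genes of a tumor share 1 library and 1 total.

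Leukocyte genes moved with Cd83. The summed level of 5 leukocyte genes (Ptprc, Cd53, Laptm5, Coro1a, Lcp1) ran from 216 to 1176 CPM and had r = 0.80 with Cd83 (0.90 without IL-33 replicate 7). IL-33 replicate 7, the highest tumor for Cd83, was not high in them, at 479 CPM against a median of 504 CPM in its group. That of the 13 dendritic cell lineage genes had r = 0.88 (0.87). Irf8 and Itgax weighed most in it, with vehicle means of 41.6 and 34.3 CPM against 0.595 CPM for Flt3. Sums of 9 B cell, 8 T cell, 6 mast cell and 7 NK cell genes had r = 0.83 (0.82), 0.74 (0.83), 0.72 (0.64) and 0.35 (0.65). The sum of 7 neutrophil genes had r = -0.21 (-0.25). That of 10 macrophage genes, in which Lyz2 had a vehicle mean of 389 CPM, had r = 0.63 (0.57). Singly, 8 of these 10 followed Cd83 (6 without IL-33 replicate 7), and Csf1r had r = 0.89 (0.87). Of the 8 epithelial genes, Krt8 alone had a negative r at an unadjusted p under 0.05 (r = -0.92, and -0.91 without IL-33 replicate 7), 2 had a positive one, and the median was 0.34 (-0.30). The part of these cell types in the relation was not tested beyond the partial correlations that follow. In bulk tumors, fewer cells of a type and less RNA per cell cannot be told apart.

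Taking out Ptprc, the gene of the common leukocyte antigen CD45, by partial correlation left r = 0.85 for Ccrl2 and 0.70 for Ccr7 with Cd83. Of all genes tested, 0.482% had a higher partial r than Ccrl2, but 17.5% had a higher one than Ccr7. The values were lower for Il12b (0.48), Cd86 (0.47), Cd40 (0.39) and Ccl22 (0.28), each exceeded by 32.2% to 44.8% of the genes tested. They were negative for Fscn1 (-0.18) and Cd80 (-0.76). Without IL-33 replicate 7 the value was -0.12 for Cd80 and -0.30 for Fscn1. The median over the 8 genes was 0.43 against 0.19 over all genes tested, and 0.36 against -0.17 without IL-33 replicate 7. Among the 8 genes, Ccrl2 and Ccr7 kept the closest relation to Cd83 in both sets of tumors, at 0.71 and 0.70 in the 15. The macrophage gene Csf1r had a partial r of 0.73 over the 16 tumors and 0.14 in the 15.

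**Figure D4:**
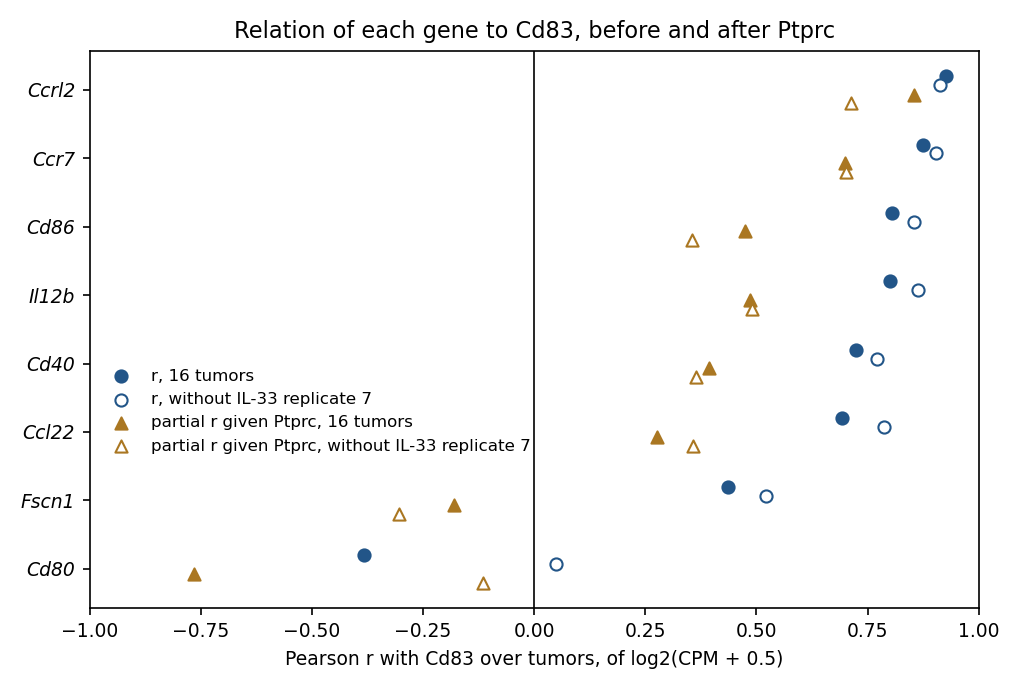
Pearson r of each gene with Cd83 over the tumors (blue circles) and the partial r given Ptprc (brown triangles), filled for all 16 tumors and open for 15 without IL-33 replicate 7. Ccrl2 and Ccr7 stay at 0.70 or above on every measure, and Cd80 moves from -0.38 to 0.05 in r.

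The third question was whether the group difference remained relative to leukocyte or lineage genes. Relative to the mean of the 13 dendritic cell lineage genes, Cd83 was higher in IL-33 tumors by 0.92 on the log2 scale (-0.14 ± 0.63 in vehicle and 0.78 ± 0.47 in IL-33 tumors, SD, n = 8 each, exact permutation p = 0.00746), with 8 of 8 IL-33 tumors above the vehicle mean. Without IL-33 replicate 7 the difference was 0.83 (exact permutation p = 0.0146). Relative to Ptprc it was 0.82 (exact permutation p = 0.0382), and 0.50 (exact permutation p = 0.0779) without that tumor. Cd83 was the 1 gene of the 9 that passed in the ratios to the lineage mean or to Ptprc over 16 tumors, in 18 comparisons with unadjusted p. Relative to the mean of the 5 leukocyte genes, an alternative to Ptprc, Cd83 differed by 1.02 (exact permutation p = 0.0042). That difference was 0.76 (exact permutation p = 0.00901) without IL-33 replicate 7. Ccr7 also passed there over 16 tumors (0.60, exact permutation p = 0.0413), but not without that tumor (0.51, exact permutation p = 0.0774).

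Ccr7 relative to the lineage mean differed by 0.50 (exact permutation p = 0.0696), and by 0.59 (exact permutation p = 0.0423) without IL-33 replicate 7. Ccrl2 differed by 0.39 (exact permutation p = 0.0569) relative to the lineage mean and by 0.28 (exact permutation p = 0.533) relative to Ptprc. The ratios of Cd86, Cd40 and Ccl22 to the lineage mean and to Ptprc were lower on average in IL-33 tumors, by 0.17 to 0.34, and none passed.

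Other genes of the maturation program were taken from a list of 32, of which 31 were tested. In IL-33 tumors 3 of them were higher, a share close to the 9.99% of all genes tested, and 0 were lower. Their median log2 fold change was 0.23 against 0.06 over all genes, and without IL-33 replicate 7 none was higher. The 3 were Serpinb6b, a serine protease inhibitor (log2 fold change 0.60, edgeR p = 0.0291, exact permutation p = 0.0418; 8 of 8 IL-33 tumors above the vehicle mean), Icosl, the ligand of ICOS (1.06, edgeR p = 0.0409, exact permutation p = 0.138), and Socs2, a brake on cytokine signalling (0.74, edgeR p = 0.0497, exact permutation p = 0.102). Without IL-33 replicate 7 the log2 fold changes fell to 0.45 for Serpinb6b, 0.42 for Icosl and 0.34 for Socs2. Birc3, a target of NF-kB that protects from cell death, came next (0.40, edgeR p = 0.0518, exact permutation p = 0.0862). Cd83 was followed by 21 of the 31, against 28.3% of all genes tested, with a median r of 0.63 against 0.31. The closest were Tnfsf9, the gene of 4-1BB ligand (r = 0.90), Birc3 (0.89), Icosl (0.85) and Serpinb6b (0.84).

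Of the 13 dendritic cell lineage genes, Irf4, a transcription factor of conventional type 2 dendritic cells that plasma cells and macrophages also use, was the 1 gene higher in IL-33 tumors, against 9.99% of all genes tested. Its means were 1.76 ± 1.5 and 6.26 ± 6.13 CPM (SD, n = 8 each). The log2 fold change was 1.75 (edgeR p = 0.0110, exact permutation p = 0.0426), and 1.80 (edgeR p = 0.0112, exact permutation p = 0.0693) without IL-33 replicate 7. Of 7 plasma cell genes, 3 were higher in IL-33 tumors by edgeR, Mzb1, Derl3 and Jchain, against 9.99% of all genes tested. The same 3 passed by edgeR without that tumor, against 1.83%. Their means were 9.90, 8.35 and 6.74 times those of the vehicle group. The exact permutation p was 0.0462, 0.0365 and 0.0873, and 0.0695, 0.0693 and 0.156 without IL-33 replicate 7, where none of the 3 passed by it. The plasma cell genes summed to between 234 and 532 CPM in vehicle tumors and between 426 and 761 CPM in IL-33 tumors. Most of that sum was Sdc1 and Xbp1, whose means were 234 and 166 CPM in vehicle and 218 and 208 CPM in IL-33 tumors. Those of Mzb1 were 2.16 and 21.4 CPM. Of the 7 genes 0 were at 0 in every tumor, and their part in the Irf4 difference was not tested. Flt3, the growth factor receptor of dendritic cells (log2 fold change 1.28, exact permutation p = 0.0517), Siglech, a plasmacytoid cell marker (1.29, exact permutation p = 0.198), and Itgae, which encodes CD103 (0.99, exact permutation p = 0.246), did not pass by edgeR either. Their unadjusted edgeR p was 0.0778, 0.136 and 0.202 (adjusted p = 0.511, 0.604 and 0.672). Without IL-33 replicate 7 the log2 fold change of Itgae was 0.47. Flt3 (r = 0.91), Itgae (0.90), Kmo (0.87) and Irf4 (0.86) were the lineage genes closest to Cd83, and 9 of the 13 followed it, against 28.3% of all genes tested. Zbtb46 was among those that did not, at r = 0.45 (rho 0.14, permutation p = 0.0694), and r = 0.18 without IL-33 replicate 7.

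The partners of the 9 genes, their ligands and receptors, were looked at by role. Of 12 tested, 3 were higher in IL-33 tumors (9.99% of all genes) and 0 lower (1.17%), and 5 followed Cd83 (28.3%). Without IL-33 replicate 7, 0 of 11 were higher (1.83%) and 2 were lower (2.29%). Cd28 and Ctla4, the T cell receptors of CD80 and CD86, had r = 0.83 and r = 0.65 with Cd83, with log2 fold changes of 0.89 (exact permutation p = 0.154) and 0.84 (exact permutation p = 0.169). The CCR7 ligand genes were dominated by IL-33 replicate 7: Ccl21a had 182 CPM there and at most 4.53 CPM in a vehicle tumor, and its log2 fold change of 3.78 (edgeR p = 0.0423, exact permutation p = 0.935) turned to -3.52 (edgeR p = 0.00329, exact permutation p = 0.0171) without that tumor. Ccl21b went from 4.71 (edgeR p = 0.0255, exact permutation p = 1) to -4.62 (edgeR p = 0.00698, exact permutation p = 0.0629) in the same way, and reads of the near-identical Ccl21 copies may be split between them. Ccl19, the other ligand, had means of 0.590 and 1.06 CPM (exact permutation p = 0.785), and its IL-33 mean was 0.424 CPM, below that of the vehicle group, without IL-33 replicate 7.

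Cd40lg, the ligand of CD40, had 1 count in the vehicle group and 12 in the IL-33 group (edgeR p = 0.00931, exact permutation p = 0.00637) and was under the limit of 10 counts without IL-33 replicate 7. Ccr4, the receptor of CCL22, had r = 0.65 with Cd83 and 18 and 37 counts in the 2 groups (exact permutation p = 0.307). Il12a, which pairs with Il12b to make IL-12, had 3 counts in each group and was not tested, and the receptor genes Il12rb1 and Il12rb2 did not pass (exact permutation p = 0.713 and p = 0.603). Chemerin, the ligand of CCRL2, is encoded by Rarres2, at 28.0 ± 35.5 CPM in vehicle and 30.9 ± 53.8 CPM in IL-33 tumors (SD, n = 8 each, exact permutation p = 0.939), and at 12.2 ± 10.6 CPM in the IL-33 group without replicate 7 (SD, n = 7). Its signalling receptor Cmklr1 had r = 0.65 with Cd83 and, like Gpr1, did not pass between groups (exact permutation p = 0.464 and p = 0.685). Without IL-33 replicate 7 the log2 fold change of Cmklr1 went from 0.32 to 0.06 and that of Gpr1 from 1.28 to -0.38.

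Among 13108 other genes with a mean of at least 1 CPM, the 10 whose levels were most like that of Cd83 over the 16 tumors had r between 0.93 and 0.96. They were Rasgef1b, a Ras exchange factor gene (r = 0.96), Csf2rb, the receptor chain shared by GM-CSF, IL-3 and IL-5 (0.95), Il7r (0.94), the kinase gene Syk (0.94), Fcho1, Neurl3, Tmc8, Lyz1, Htr7 and, in place 10, Ccrl2. Csf2rb and Syk were abundant, at 41.8 and 44.4 CPM, against 1.11 CPM for Lyz1. Rasgef1b (log2 fold change 0.89) and Csf2rb (0.57) were also higher in IL-33 tumors at an unadjusted p under 0.05, and neither passed after adjustment (edgeR adjusted p = 0.420 for both). Their log2 fold changes were 0.81 and 0.39 without IL-33 replicate 7, where neither was past an unadjusted p of 0.05, while r with Cd83 of the 10 genes lay between 0.91 and 0.97.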

How the data were processed

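RNA from 16 tumors was sequenced by a company after poly(A) selection. The authors deposited raw counts of reads per gene for each tumor, without normalization, and the submitters' processing notes name HISAT2, featureCounts and mm10. Tool versions and the use of strand are not given in the sources used here, but no GENCODE M21 gene overlaps any of the 9. Groups and replicate numbers came from the labels. The 16817 of 22298 genes whose counts summed to 10 or more were tested with edgeR 4.0.16 (TMM, glmQLFit and glmQLFTest, group only, two-sided), with Benjamini-Hochberg adjustment over all of them. Correlations and ratios used log2(CPM + 0.5) and two-sided permutation tests, exact over 12870 assignments of tumors between groups and with 100000 permutations for r. Total counts are given with the results, and intervals and limits at 0 counts cover counting error only. DESeq2 1.42.0, limma 3.58.1 and other scalings, filters, pseudocounts and tumor sets were tried. The genes and gene lists were chosen with earlier results of these data known. Named genes were the 9, the 4 smallest p and 4 highest r of each of 3 lists, the partner genes by role, and the 10 genes most like Cd83. Same-numbered tumors of the 2 groups did not pair (r from -0.34 to 0.37).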

Additional observations from a re-analysis of the deposited data

Results flagged for a closer look

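Each of the 9 genes was screened in each group of 8 tumors for a tumor far from the others on the log2(CPM + 0.5) scale (Dixon's ratio of gap to range at its 95% limit), 18 groups in all, of which chance marks about 1 in 20. Cd80 in IL-33 replicate 7 was far below its group, at 6.55 CPM against 30.8 to 53.5 CPM in the other 7. In the same tumor the ovary, uterus and oviduct marker sums were far above those of every other tumor, and those of adipose, fibroblast and lymph node stroma genes were also highest. The part of these tissues in the Cd80 level, and in the Cd83 level of that tumor, was not tested. Il12b in vehicle replicate 7 was far above its group, at 1.31 CPM against at most 0.307 CPM. Ccl22 in vehicle replicate 7 was likewise far above its group, at 3.14 CPM against at most 0.736 CPM. That tumor was also the highest vehicle tumor for Cd83, Ccr7, Cd86, Cd40 and Ccrl2, and it had the highest macrophage, T cell and mast cell marker sums of all 16 tumors, at 3077, 84.0 and 79.6 CPM, whose part in these levels was not tested.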

How the results depend on the processing

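The number of the 9 genes higher in IL-33 tumors was 2 or 3 under the 7 alternatives with all tumors, 1 with DESeq2 and IL-33 replicate 7 left out, and from 1 to 4 when 1 tumor was left out. The exact permutation test called 2, and 1 without IL-33 replicate 7. The relation to Cd83 was called for 6 or 7 of 8 genes under the alternatives with 14 or more tumors, but for 2 within the 10 tumors below the widest gap in Cd83 and for 1 within the 6 above it, sets chosen after seeing the data. Of the ratios to Ptprc, 1 gene passed, 0 with a pseudocount of 1 or without IL-33 replicate 7, and 2 against the leukocyte list mean. Of the ratios to the lineage mean, 1 passed, and 2 with a pseudocount of 0.1 or 1 or without IL-33 replicate 7. The median partial r was 0.43, and 0.36 without IL-33 replicate 7. Fewer tumors also mean a weaker test, and the cause of these changes was not tested otherwise.

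Signs turned only for genes that had not passed or within the sets split at the gap. The log2 fold change of Cd80 was 0.060 by limma voom and 0.040 by DESeq2 without IL-33 replicate 7, and from -0.22 to 0.051 with 1 tumor left out; those of Cd40 and Ccl22 ran from -0.21 to 0.94 and from -0.51 to 1.57, both lowest without IL-33 replicate 3. The permutation difference of Cd80 was 0.10 without IL-33 replicate 7. The log2 ratio difference of Il12b was 0.41 (pseudocount 0.1) and 0.13 (leukocyte list mean) against Ptprc, and -0.057 (pseudocount 1) against the lineage mean. In r with Cd83, Fscn1 turned to -0.38 on TMM-scaled CPM, -0.10 below the gap and -0.31 above it. Cd80 turned to 0.45 below the gap and ran from -0.46 to 0.048 with 1 tumor left out. Cd40 turned to -0.047 below the gap and -0.43 above it, and Ccr7, Cd86 and Ccl22 to -0.52, -0.56 and -0.46 above it.

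Over all genes 1680 were higher and 196 lower, against 424 and 267 by DESeq2, 522 and 444 by limma voom, 499 and 143 after filterByExpr, 1962 and 101 by total count alone (median log2 fold change 0.13), and 289 and 362 without IL-33 replicate 7, where DESeq2 gave 1 gene at an adjusted p under 0.05. The replicate numbers pair the tumors only by number (3 of 8 pairs had r above 0.1, and 2 of 8 tumors matched their own number best). With the replicate number as a block 2 of the 9 genes were higher, and 246 higher and 72 lower over all genes; with values centred on it 7 genes followed Cd83 and r of Cd80 was 0.25. Genes of a few counts, Il12b and Ccl22, are limited by depth.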

Other observations

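The genes whose levels were most like those of the 2 genes that did not pass in r with Cd83, Fscn1 and Cd80, were looked up after the values had been seen, over the 15 tumors without IL-33 replicate 7 and among genes with a mean of at least 1 CPM. For Cd80 they were Cdr2l (r = 0.88) and Map3k10 (r = 0.88). With IL-33 replicate 7 included, r with Cd80 was 0.84 for Cdr2l and 0.11 for Map3k10. For Fscn1 they were Arsi (r = 0.92), Ehd3 (r = 0.92) and Fat4 (r = 0.91), the last a large protocadherin gene.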
